A study of Mus musculus with 10 samples.

Results

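The genes described here carry or answer TGF-beta and BMP signals: the ligands Tgfb2, Bmp2 and Bmp4, the receptor Tgfbr2, the signal carrier Smad3, the inhibitors Smad6 and Smad7, and the targets Ccn2, Id2 and Id3. Their chromatin accessibility was measured by ATAC-seq, in which a transposase cuts open DNA and tags it for sequencing, in atrial cardiomyocyte nuclei of mice aged 8 to 12 weeks. The deposited table holds 5327 regions that the authors called as differing between genotypes, each represented by a bin of 500 bp with its read counts. A region was given to one of the 10 genes when that gene was the nearest protein-coding gene body (RefSeq, assembly GRCm38.p6, the coordinates of mm10) to its bin. This rule found 18 regions, at least 1 for each of the 10 genes, out of 5327 regions nearest to 3148 genes. Nearness alone leaves the target of a region unknown.

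The 2 genotypes were control and Prrx1(R1A)-/-, the latter homozygous for an allele of a noncoding region that, per the title of the series, regulates the homeobox gene Prrx1. The sources used here give neither the bounds of the allele, nor the strain, nor the genotype behind the word control. Both atria of an animal had been pooled, and nuclei had been sorted for PCM1, a centriolar satellite protein used to mark cardiomyocyte nuclei. There were 4 Prrx1(R1A)-/- libraries from 4 animals and 6 control libraries from 4 animals, since controls 1 and 3 each had a repeat library, which was summed with the first.

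TGF-beta and BMP ligands are secreted dimers that bring together type I and type II serine/threonine kinase receptors. The activated type I receptor phosphorylates SMAD proteins, SMAD3 downstream of TGF-beta and activin and SMAD1, SMAD5 and SMAD9 downstream of BMPs, which enter the nucleus with SMAD4. SMAD6 and SMAD7 inhibit the pathway and are themselves induced by it. In the heart, BMP2 and TGF-beta2 are known for their part in forming the valve cushions, and TGF-beta signalling is known for driving fibrosis of the adult atrium.

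Of the 10 genes, 7 had a start-site sequence in the RefSeq promoter table used here (GRCm38.p6), and the 250 bases before the start lay under a listed region for 0 of these 7. In a wider list of 86 genes of the pathway, 59 had an entry and 2 had this stretch wholly under a listed region. These were Bmp10, a growth factor of atrial myocytes, under a region that the authors listed as lower in Prrx1(R1A)-/- atria, and Acvr2b, a type II activin receptor, under one listed as higher. They are shown because, among pathway genes with an entry, theirs are the start stretches that the listed changes wholly cover. Ccn2, Bmp2 and Smad7 had no entry, and a listed region described below covered the whole Ccn2 gene with both its ends. The sequences are on the plus strand, 5′ to 3′, from chr6:87428744-87428993 for Bmp10 and chr9:119401928-119402177 for Acvr2b. Capitals mark the SMAD motif CAGAC on either strand (GTCTG on the other).
Bmp10: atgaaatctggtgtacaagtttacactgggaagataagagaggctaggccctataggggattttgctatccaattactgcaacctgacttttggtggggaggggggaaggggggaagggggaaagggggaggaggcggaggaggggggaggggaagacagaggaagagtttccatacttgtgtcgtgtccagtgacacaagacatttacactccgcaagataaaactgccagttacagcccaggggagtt
Acvr2b: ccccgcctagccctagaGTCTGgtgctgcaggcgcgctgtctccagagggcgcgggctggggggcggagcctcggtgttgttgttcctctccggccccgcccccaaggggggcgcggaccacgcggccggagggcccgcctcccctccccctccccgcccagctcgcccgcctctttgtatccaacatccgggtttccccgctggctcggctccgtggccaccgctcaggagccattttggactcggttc

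CAGAC was present 1 time in the Acvr2b stretch and 0 times in that of Bmp10, and 42.2% of 32851 promoters of the same length held it. GGCGCC, a SMAD motif of BMP targets (9.59% of promoters), GGAATG, the TEAD motif (12.6%), and TGACTCA, the AP-1 motif (4.46%), each sought on both strands, were found in neither.

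Ligands, the inhibitor Smad7 and the target Ccn2 had regions that were lower in Prrx1(R1A)-/- atria, while Tgfbr2, Smad3, Smad6 and Id3 had regions that were higher, and Id2 had 1 of each. In all, 13 regions were lower and 5 higher. Because every region in the table had been called by the authors, these calls are theirs: 33.3% of all listed regions were lower and 66.7% higher. Counts were scaled so that the difference in level between genotypes matched that in the authors' own fold changes, and on this scale an edgeR fit called all 18 regions, as it did every region in the table. Log2 changes from this fit were larger than the deposited ones. Their medians were -1.05 against -0.88 over the 13 lower regions and 1.08 against 0.89 over the 5 higher. The p-values of that fit describe regions already chosen on the same libraries and are not independent evidence. With edgeR's TMM factors, which assume that most regions do not change, log2 changes were 0.60 lower throughout, 33.3% of all regions were called lower and 18.5% higher, and 13 and 2 of the 18. Among regions that the authors list as lower TMM called 100%, and among those they list as higher 27.8%. The 3 that were then not called were Smad3 (edgeR adjusted p = 0.070), Smad6 (adjusted p = 0.25) and Id3 (adjusted p = 0.19).

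Each library had between 151976 and 521778 reads in the listed bins; total depth was not analysed here. Summed over 4 animals, a bin of the 18 held between 102 and 2079 reads in controls and between 31 and 1131 in Prrx1(R1A)-/- atria. All 4 Prrx1(R1A)-/- animals lay beyond all 4 controls in 11 of the 13 lower and 5 of the 5 higher regions. Over the regions of the table that the authors list in the same direction, this held for 88.8% and 90.6% (29.6% and 60.4% of the whole table), so the members were near the background. With TMM it held for 13 of the 13 and 3 of the 5, against 99.2% and 20.8% (33.1% and 13.9% of the whole table). With 4 animals against 4 the smallest two-sided exact permutation p is 0.029, and 16 of the 18 regions reached it. They were those with the groups apart on the authors' scale. Like the edgeR p-values, the permutation p-values describe regions already chosen on the same libraries and are not independent evidence. In sorted nuclei measured in bulk, fewer nuclei of a type and fewer reads per nucleus cannot be told apart.

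Few of the 18 regions lay in gene bodies. Only 3 of the 18 bins (16.7%) fell inside a protein-coding gene body, against 60.9% of all 5327, and the median distance to the gene was 29.5 kb. Gene length, on which this share depends, was not taken into account. Bodies of the member genes ran from 1571 bp (Id3), 2294 bp (Id2) and 3242 bp (Ccn2) to 111229 bp (Smad3). Within 50 kb of the gene lay 12 of them, or 66.7%, against 85.0% of all. Their median width, 750 bp, was that of the whole table. The median control level was 55.9 scaled reads (49.3 over all regions). The median deposited log2 change was -0.88 over the 13 lower regions (-0.80 over all lower ones) and 0.89 over the 5 higher (0.81 over all higher ones).

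**Figure D1:**
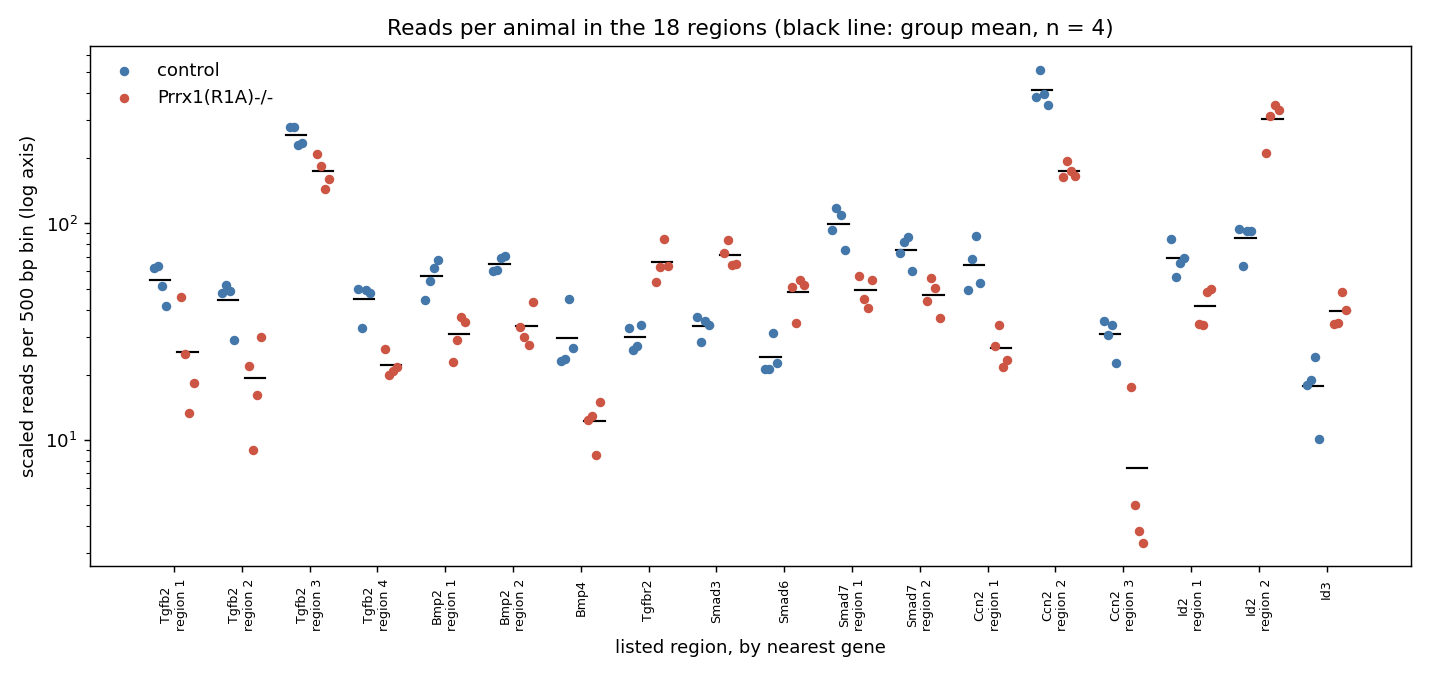
Scaled reads per 500 bp bin (log axis) in each of 4 control and 4 Prrx1(R1A)-/- animals for the 18 regions, 1 point per animal and a black line at the group mean. The Ccn2 region 2 and Tgfb2 region 3 bins are the highest in controls, and in Tgfb2 regions 1 and 2 the groups overlap.

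Tgfb2 encodes a TGF-beta ligand that is abundant in the developing heart. Its 4 regions all lay past the 3′ end of the gene, which is on the minus strand (chromosome 1, 186622787 to 186709697), at 15.3 to 45.3 kb from the gene body and 98.5 to 128.5 kb from the start site. The next protein-coding gene, Rrp15, was 113.6 to 143.6 kb away. All 4 were lower in Prrx1(R1A)-/- atria, and no other listed region lay within 500 kb of the gene. The regions are numbered from the lowest coordinate.

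Region 1 (186577001 to 186577500) had 62.3, 63.5, 51.3 and 41.5 scaled reads in control animals 1 to 4 and 45.6, 24.8, 13.2 and 18.3 in Prrx1(R1A)-/- animals 1 to 4. The groups overlapped, since Prrx1(R1A)-/- animal 1 lay above control 4. The log2 change was -1.05 ± 0.28 (SE; two-sided exact permutation p = 0.057, n = 4 each).

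Region 2 (186580251 to 186581750) had 47.5, 51.8, 49.0 and 28.9 scaled reads in controls and 21.9, 8.94, 16.1 and 30.0 in Prrx1(R1A)-/- animals. Control 4 was again the low control, and it lay below Prrx1(R1A)-/- animal 4. In log2 units the change was -1.26 ± 0.31 (SE; exact permutation p = 0.057, n = 4 each).

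Region 3 (186586751 to 186587250) was the most accessible of the 4 by far, with 279, 280.0, 232 and 237 scaled reads in controls, above 98.7% of all listed bins. Prrx1(R1A)-/- animals had 210.2, 184, 144 and 160.0, all below every control. Its change was small: 67.9% of the control level remained, a log2 change of -0.55 ± 0.14 (SE), and by the deposited fold it ranked 1770 of 1776 lower regions.

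Region 4 (186606751 to 186607500), nearest to the gene and over the noncoding gene Gm35546, had 49.6, 32.9, 49.4 and 47.8 scaled reads in controls and 26.3, 19.9, 20.8 and 21.7 in Prrx1(R1A)-/- animals. The groups did not overlap, with control 2 the lowest control. The log2 change was -1.05 ± 0.25 (SE).

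Bmp2, a BMP ligand that patterns the atrioventricular canal, had 2 lower regions on opposite sides of the gene (chromosome 2, 133552159 to 133562896). Region 1 (133336251 to 133336750), 215.4 kb from the lower-coordinate end, had 44.3, 54.1, 62.5 and 68.0 scaled reads in controls and 22.8, 28.8, 36.9 and 35 in Prrx1(R1A)-/- animals. Region 2 (133630251 to 133631000), 67.4 kb from the other end, had 60.2, 61.2, 69.0 and 70.5 in controls and 33.3, 29.8, 27.4 and 43.3 in Prrx1(R1A)-/- animals. At both the groups were apart, with 54.0% and 51.3% of the control level left. The log2 changes were -0.90 ± 0.23 and -0.99 ± 0.22 (SE). The next protein-coding gene, Fermt1, was 390.2 and 684.2 kb from the bins, and no further listed region lay within 500 kb of Bmp2.

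Bmp4, a BMP ligand of the embryonic outflow tract and second heart field, had 1 lower region, the farthest from its gene of the 18. It lay at chromosome 14, 46067001 to 46068000, 315.5 kb from Bmp4 on the 3′ side, with Ddhd1 next at 409.4 kb. Control animals had 23.2, 23.5, 44.8 and 26.4 scaled reads and Prrx1(R1A)-/- animals 12.3, 12.9, 8.51 and 15. The groups were apart, and control 3 stood above the other controls. Its log2 change was -1.35 ± 0.37 (SE), on 171 control and 45 Prrx1(R1A)-/- reads. The repeat libraries of control 3 held 38 and 58 reads in this bin.

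Tgfbr2 encodes the type II receptor of TGF-beta. Among members with an entry for the start site, its region was the one nearest to the start. The bin lay 2.6 kb upstream of the start (chromosome 9, region 116177751 to 116178750; the gene is on the minus strand), over the noncoding gene Gm40582. Controls had 32.7, 25.9, 27.0 and 34 scaled reads and Prrx1(R1A)-/- animals 53.4, 62.6, 85.1 and 63.3. All 4 Prrx1(R1A)-/- animals were above all controls, at 221% of their mean. Its log2 change was 1.13 ± 0.22 (SE), or 0.54 with TMM (edgeR adjusted p = 0.046).

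Smad3, the SMAD that carries TGF-beta and activin signals, had a higher region inside the gene, 9.7 kb past the start (chromosome 9, 63747501 to 63748250). Its reads were 37.0, 28.2, 35.4 and 34 in controls and 72.7, 83.5, 64.3 and 65.0 in Prrx1(R1A)-/- animals. The groups were far apart relative to their spread, 33.6 ± 3.81 against 71.4 ± 8.92 scaled reads (SD, n = 4). The log2 change was 1.05 ± 0.21 (SE), or 0.45 with TMM.

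Smad6, which mainly inhibits BMP signals, lies in the same stretch of chromosome 9 as Smad3. Its region (64045501 to 64046000), 23.4 kb upstream of the start, was higher as well. Controls had 21.1, 21.2, 31.2 and 22.7 scaled reads and Prrx1(R1A)-/- animals 50.8, 34.8, 54.9 and 51.7. The lowest Prrx1(R1A)-/- animal, 2, was just above the highest control, 3. The log2 change was 0.95 ± 0.25 (SE), or 0.35 with TMM factors, on which the groups overlapped. The Smad3 and Smad6 regions were the only listed ones within 500 kb of either gene.

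Smad7, the inhibitor that acts on TGF-beta and BMP receptors alike, had 2 regions and both were lower, the reverse of Smad6. Region 1 (chromosome 18, 75362501 to 75363250), 4.4 kb from the lower-coordinate end and over the noncoding gene Gm20544, had 92.9, 118, 110.0 and 75.5 scaled reads in controls and 56.9, 44.7, 40.7 and 55.0 in Prrx1(R1A)-/- animals. Region 2 (75378751 to 75379250), inside the gene, had 73.4, 82.3, 86.7 and 60.4 in controls and 43.8, 55.7, 50.1 and 36.7 in Prrx1(R1A)-/- animals. Neither pair of groups overlapped, though control 4 was the lowest control at both. The log2 changes were -1.002 ± 0.20 and -0.69 ± 0.20 (SE).

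**Figure D2:**
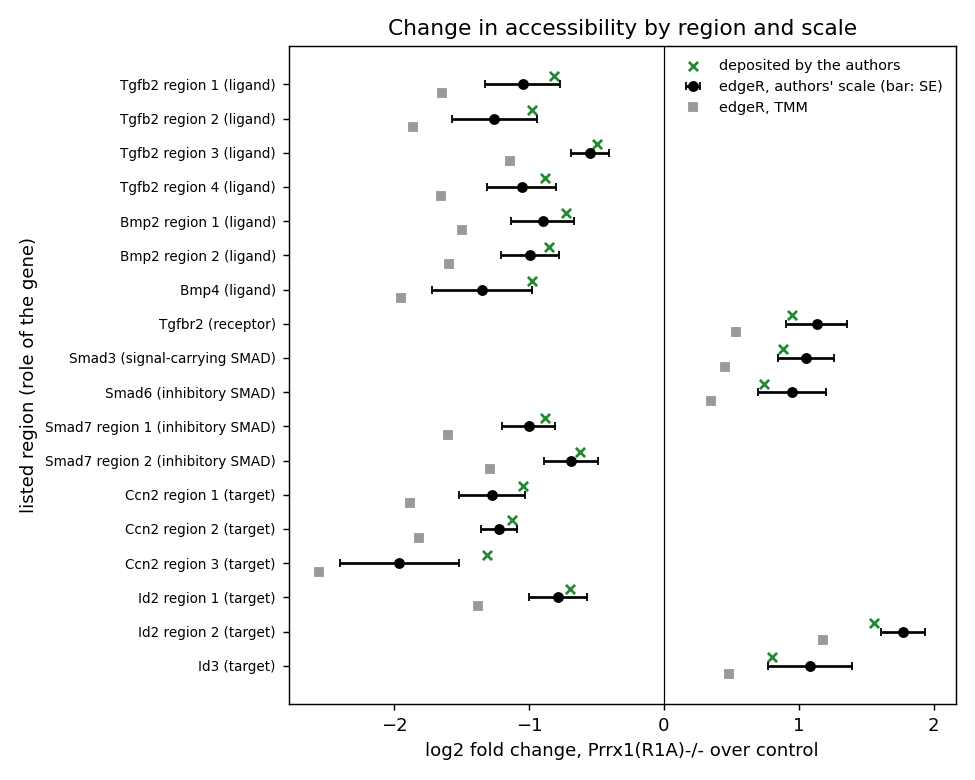
Log2 fold change of each region, Prrx1(R1A)-/- over control, on the authors' scale with its SE (black), with TMM factors (grey squares) and as deposited by the authors with the sign turned (green crosses). Directions are the same on all 3, from -1.96 at Ccn2 region 3 to 1.77 at Id2 region 2 on the authors' scale.

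Ccn2 encodes connective tissue growth factor, a matricellular protein induced by TGF-beta and by YAP with TEAD factors. It had 3 regions, all lower. The broadest, region 2 (chromosome 10, 24593001 to 24600500), was 7500 bp wide and covered the whole gene (24595442 to 24598683), with its bin across the lower-coordinate end. It had 385, 515, 396 and 354 scaled reads in controls, a level above 99.8% of all listed bins, and 165, 194, 175 and 165 in Prrx1(R1A)-/- animals. The lowest control stood well above the highest Prrx1(R1A)-/- animal, and 42.3% of the control level remained. By the deposited log2 change, -1.13, it ranked 101 of 1776 lower regions.

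Region 1 of Ccn2 (24487501 to 24488000) lay 107.4 kb from the gene. Like the bin of region 2, it fell within the long noncoding gene Gm15270. Controls had 49.1, 68.2, 87.6 and 52.9 scaled reads and Prrx1(R1A)-/- animals 27.2, 33.8, 21.8 and 23.3, without overlap. The log2 change, -1.28 ± 0.24 (SE), was close to that of region 2, -1.22 ± 0.13 (SE).

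Region 3 of Ccn2 (24601001 to 24602000), 2.8 kb past the other end of the gene, had the largest loss among the 18 regions and ranked 29 of 1776 by the deposited fold. Controls had 35.4, 30.6, 34 and 22.7 scaled reads and Prrx1(R1A)-/- animals 17.5, 4.97, 3.78 and 3.33. The groups were apart, but Prrx1(R1A)-/- animal 1, with 20 reads, stood far from animals 2 to 4, with 5, 4 and 2. Its log2 change was -1.96 ± 0.44 (SE) and moved to -2.89 without that animal.

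Id2 encodes an inhibitor of basic helix-loop-helix factors that BMP signals induce, and it was the gene whose regions went both ways. Both lay upstream of the start, which is on the minus strand of chromosome 12. Region 1 (25161001 to 25161500), 64.9 kb away and over the noncoding gene Gm36287, had 85.0, 56.5, 65.7 and 69.2 scaled reads in controls and 34.2, 33.8, 48.2 and 50 in Prrx1(R1A)-/- animals. Region 2 (25231501 to 25233750), at 136.9 kb, had 94.0, 63.5, 92.8 and 91.9 in controls and 212, 315, 352 and 333 in Prrx1(R1A)-/- animals. The groups were apart at both, in opposite directions.

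The Id2 region 2 had the smallest adjusted p of the 18 in the authors' deposited table, 4.02e-16, and ranked 35 of 3551 higher regions by fold. It went from 85.5 ± 14.7 to 303 ± 62.5 scaled reads (SD, n = 4), or 354% of control. In log2 units it rose by 1.77 ± 0.16 (SE), with an adjusted p of 5.43e-09 in the edgeR fit. With TMM factors the change was 1.18. Region 1 fell by 0.78 ± 0.21 on the log2 scale (SE). Kidins220, the next protein-coding gene, was 97.8 kb from region 1 and 169.8 kb from region 2.

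Id3, of the same family of inhibitors, had 1 higher region 18.1 kb upstream of its start (chromosome 4, 136125251 to 136126000), with E2f2 at 46.5 kb. It was the least accessible of the 18 in controls, with 17.9, 18.8, 24.2 and 10.1 scaled reads. Prrx1(R1A)-/- animals had 34.2, 34.8, 48.2 and 40.0, all above the controls. Its log2 change was 1.08 ± 0.31 (SE), or 0.48 with TMM factors, on which the groups overlapped.

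**Figure D3:**
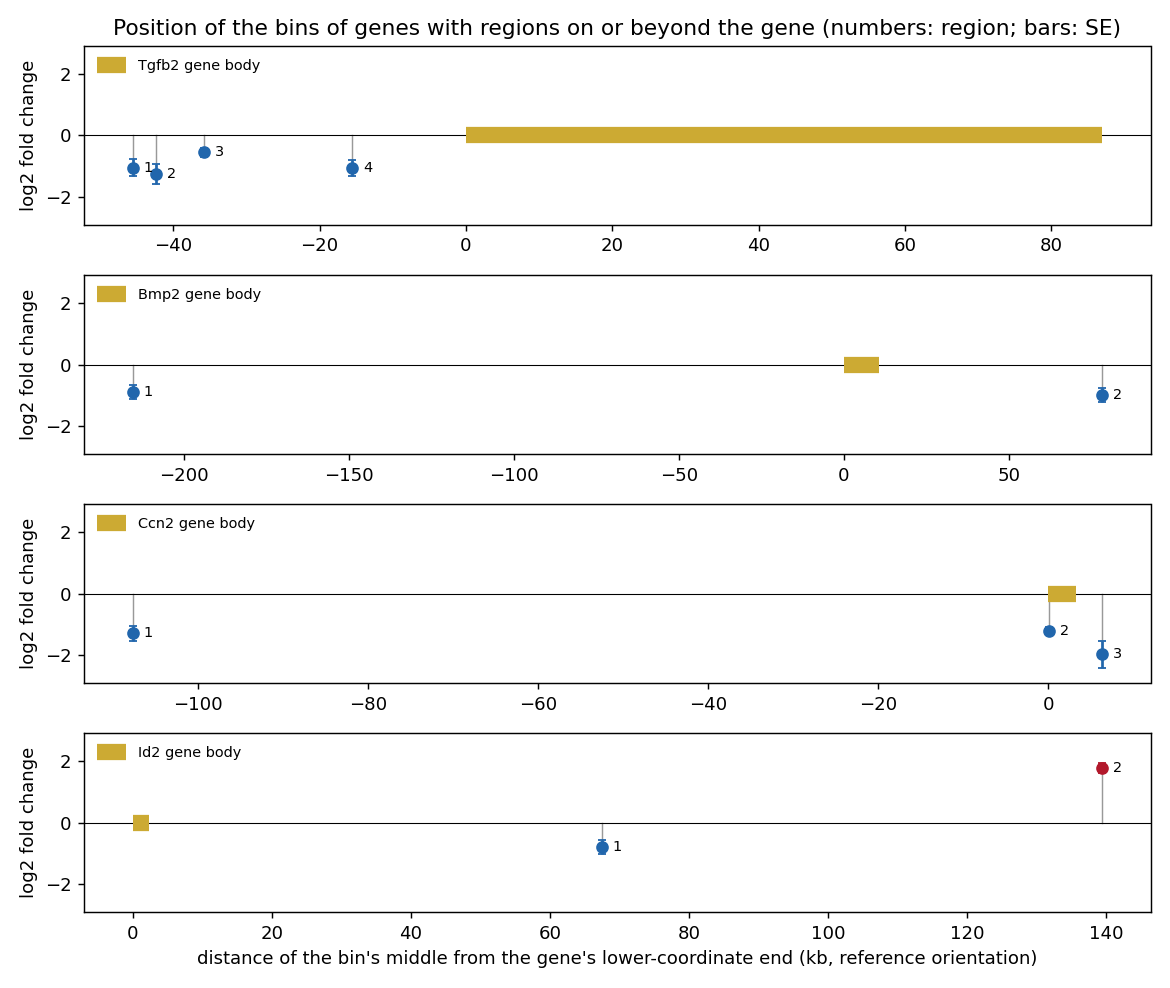
Log2 fold change on the authors' scale (y axis, bars are SE) of the bins of Tgfb2, Bmp2, Ccn2 and Id2 against the distance of the bin's middle from the gene's lower-coordinate end (x axis, kb, reference orientation), with the gene body in yellow. The Tgfb2 bins all lie on one side, within 45.3 kb of the gene, and the Id2 bins, on one side too, point in opposite directions.

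Whether regions of the same gene responded alike was tested by the ratio of their bins within each animal, which needs no scaling between animals. There were 12 pairs at 5 genes. For Id2, the log2 ratio of region 2 over region 1 was 0.14, 0.16, 0.49 and 0.40 in controls and 2.60, 3.18, 2.84 and 2.70 in Prrx1(R1A)-/- animals. These did not overlap and differed by 2.53 (exact permutation p = 0.029, the smallest possible; adjusted p = 0.29 over 12 pairs). Since both regions had been listed for opposite changes, a difference here follows from the listing, and only its size is information.

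No pair passed after adjustment, and the Id2 pair was the only one of 12 with an unadjusted p under 0.05. Over 12 pairs, a pair that alone reached the smallest possible p could not pass, whatever the size of its difference. The adjusted result is therefore no evidence that the Id2 regions responded alike. Tgfb2 region 3 over region 1 had a mean log2 ratio of 2.22 ± 0.17 in controls and 2.85 ± 0.49 in Prrx1(R1A)-/- animals (SD, n = 4; exact permutation p = 0.057), so the strongest of the Tgfb2 bins lost the smaller share of its reads, within overlapping ranges. Ccn2 region 3 over region 2 went from -3.70 ± 0.27 to -4.62 ± 0.97 (SD, n = 4; exact permutation p = 0.14), with Prrx1(R1A)-/- animals 2 to 4 below all controls and animal 1 above them. Ccn2 region 2 over region 1 was 2.68 ± 0.35 in controls and 2.68 ± 0.21 in Prrx1(R1A)-/- animals (SD, n = 4; exact permutation p = 0.97). The pairs of Bmp2 (p = 0.74) and Smad7 (p = 0.40, both exact permutation) overlapped as well. With 4 animals a group, a p above the threshold does not show that regions responded alike.

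**Figure D4:**
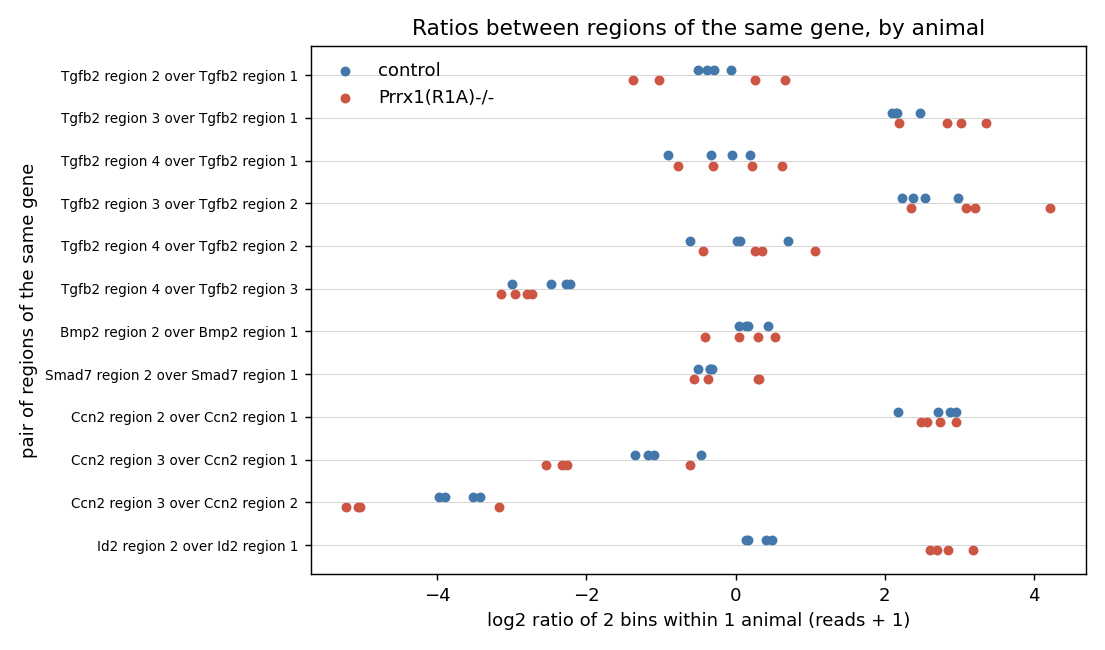
Log2 ratio of the reads of 2 bins within an animal (x axis) for the 12 pairs of regions of the same gene (y axis), 1 point for each of 4 control and 4 Prrx1(R1A)-/- animals. The Id2 pair is the only one in which the groups are apart, 0.14 to 0.49 in controls and 2.60 to 3.18 in Prrx1(R1A)-/- animals.

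The wider list of 86 pathway genes was described by role, with edgeR log2 changes on the authors' scale; being listed, all its regions carry the authors' call. Of these, 28 had a listed region, 58 had none, and the 56 regions split into 27 higher and 29 lower, or 48.2% higher against 66.7% in the whole table. Without the 10 genes above, 22 of 38 regions were higher, or 57.9%. The median deposited log2 change over the 56 was -0.56, and 0.55 without the 10 genes, against 0.70 over all listed regions. Since the table holds no values near 0, this median takes the side with more regions. With TMM factors, edgeR called 5 of the 27 higher regions and 29 of the 29 lower.

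Ligand genes had 12 lower and 4 higher regions, in 8 of 18 genes, so that 25% were higher. Of the lower ones, 4 were at Tgfb2, 2 at Bmp2 and 1 at Bmp4, which are members chosen with earlier results known. Every higher ligand region was at a gene outside the members. The remaining lower regions belonged to Bmp10, with 3, and to Gdf6, a BMP family member of joints and eye. The Bmp10 region over the promoter printed above was 15000 bp wide, and its bin lay 0.2 kb from the gene. That bin had 112 ± 15.8 scaled reads in controls and 23.0 ± 6.85 in Prrx1(R1A)-/- animals (SD, n = 4). Its log2 change was -2.35, and those of the other Bmp10 regions, at 9.7 and 7.5 kb, were -2.43 and -1.42. The Gdf6 regions lay 395.4 and 453.7 kb from the gene, with log2 changes of -1.04 and -1.73. Higher regions belonged to Bmp5, inside the gene (0.94), to Inhba, which encodes an activin subunit, at 177.1 and 179.6 kb (0.98 and 1.63), and to Mstn, the muscle growth inhibitor myostatin, at 23.6 kb (1.47). Each of the 8 ligand genes had regions of a single direction.

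Receptor genes had 8 higher and 4 lower regions, in 5 of 13 genes, or 66.7% higher, the share in the whole table. The higher ones were 1 at Tgfbr2, 4 at Tgfbr3, which encodes the co-receptor betaglycan, 2 inside Acvr1b, a type I activin receptor, and 1 at the Acvr2b promoter. The Tgfbr3 regions had log2 changes of 0.73, 1.63, 0.86 and 0.74, the Acvr1b regions 0.93 and 0.81, and the Acvr2b region 0.63, from 100.4 ± 14.8 to 154 ± 19.8 scaled reads (SD, n = 4). With TMM factors the Acvr2b change was 0.037 (edgeR adjusted p = 0.84). On those factors 2 of the 8 higher and 4 of the 4 lower receptor regions were called. All 4 lower ones were assigned to Acvr2a, a type II activin receptor, from 204.6 to 1684.4 kb away. Within 50 kb of their gene, no lower receptor region remained. The same limit leaves out the lower ligand regions of Bmp2, Bmp4 and Gdf6 and the higher ones of Inhba. In the whole table, 80.6% of lower and 87.1% of higher regions lay within 50 kb of their gene.

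Among SMADs that carry the signal, Smad2 had a lower region 36.1 kb away (log2 change -1.05) beside the higher one in Smad3. Of the intracellular inhibitors, Smurf1, a ubiquitin ligase for SMADs, had a higher region inside the gene (0.80). Extracellular binders had 3 lower and 2 higher regions. Ltbp1, which tethers latent TGF-beta to the matrix, and Twsg1, a BMP binder, each had 1 of either direction, and Ltbp2 had 1 lower.

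Target genes had 10 higher and 7 lower regions, in 7 of 22 genes. Of these regions 58.8% were higher, against 66.7% in the whole table. With TMM factors, 1 of the 10 higher and 7 of the 7 lower target regions were called. Ccn1, the close relative of Ccn2, had a lower region 1.0 kb from the gene (-0.91) and 2 higher ones 24.5 and 35 kb away (0.88 and 0.98). Acta2, smooth muscle actin, had 2 lower regions (-1.42 and -1.28). Klf10, an early TGF-beta response gene, had 4 higher ones (0.50 to 0.82). By the authors' calls, TGF-beta targets thus stood on both sides, Ccn2 and Acta2 lower, Klf10 higher. With TMM factors 2 of the 4 Klf10 regions (-0.09 and -0.04) changed sign, and none of the 4 was called.

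**Figure D5:**
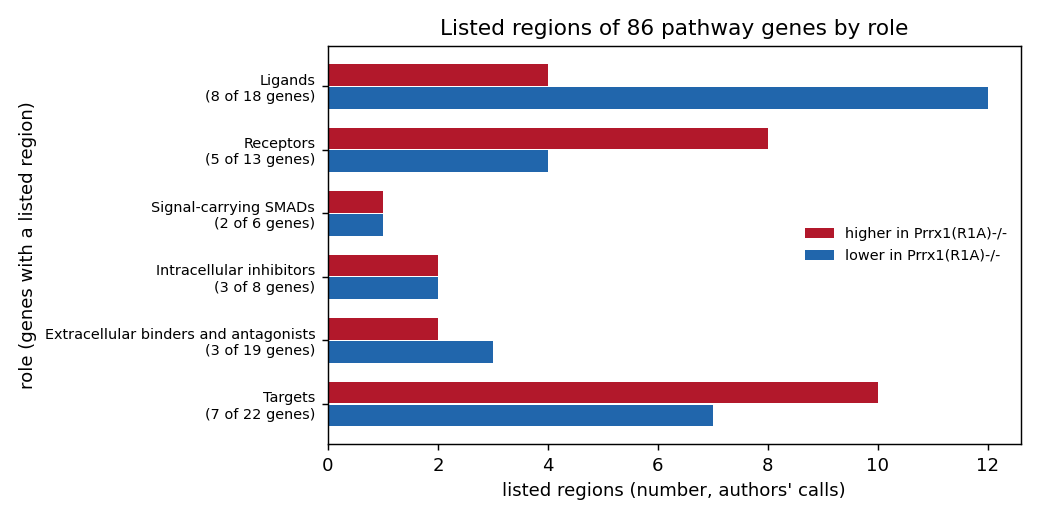
Number of listed regions (x axis) higher and lower in Prrx1(R1A)-/- atria for 86 pathway genes by role (y axis), with the number of genes that had a listed region. Ligand genes have 12 lower and 4 higher regions, and the lower ones include all those of the members Tgfb2, Bmp2 and Bmp4. Receptor genes have 4 lower and 8 higher, the share of higher regions (66.7%) in the whole table.

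Cell type markers were looked up in the same table. Of 8 cardiomyocyte markers, 5 had a listed region, 29 of these regions lower and 21 higher. Of 27 markers of fibroblasts, endothelium, smooth muscle, immune cells and epicardium, 11 had one, 10 regions higher and 5 lower, the same share of higher regions as the 66.7% of the whole table. In endothelium 1 region was higher (Erg) and 3 lower (Cdh5, Kdr and Npr3), and in smooth muscle and pericytes 4 were higher (Cspg4 and Pdgfrb) and 2 lower (Acta2). The 3 immune regions (Csf1r and Runx1), 1 fibroblast region (Dpt) and 1 epicardial region (Krt8) were higher. Acta2 is also one of the targets above. Their part in the changes at pathway genes was not tested, and since only called regions are listed, accessibility of the markers as such was not analysed here.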

How the data were processed

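ATAC-seq libraries (paired reads of 150 bp, per the labels' protocols) were processed by the authors with BWA, bedtools and DESeq2 on mm10, per the submitters' processing notes, without versions or roles. The authors deposited unnormalized reads per 500 bp bin, handled as estimated counts since 17 cells hold 0.1, rounded to 0 here. Their deposited log2 ratio sets control over Prrx1(R1A)-/- and has its sign turned here, and their deposited p-values are adjusted. A signal per genotype that the authors deposited, the geometric mean of its counts, set the scale. Their log2 ratios were fitted by a line to those of the geometric means over 1432 bins with both at or above 50 (slope 0.874), which put the offset between genotypes at 0.142 log2. Within a genotype, libraries were scaled by median ratios. Levels are counts divided by these factors.

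Counts, summed per animal, were fitted over all 5327 regions with edgeR 4.0.16 (glmQLFit, glmQLFTest, R 4.3.3) and Benjamini-Hochberg adjustment at 0.05. The SE is the log2 change divided by the root of the F statistic. Permutation tests used log2(scaled count + 1), pairs log2 ratios of (count + 1), two-sided over 70 splits. Alternatives used TMM, DESeq2 1.42.0 and others given in the closing section. The edgeR step was tested on simulated data. Genes came from 21900 protein-coding RefSeq bodies. The members, gene lists and tests were chosen with earlier results of these data known. The text names every member region and every list gene with a region, except 1 that is counted but not reported here. The motif search had been planned for members and was widened to the list. The sequence of the regions was not analysed here. The sources used here state no bin filter, read shifting or duplicate handling. The labels do not say whether animals came from separate litters, nor whether same-numbered ones were paired, and they were treated as unpaired.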

Additional observations from a re-analysis of the deposited data

Results flagged for a closer look

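In 5 of the 36 groups of 4 animals (18 regions in 2 genotypes), 1 animal's gap to the nearest other, divided by the whole range of the group, passed Dixon's 95% critical value for 4 samples. Chance flags about 1 in 20 such groups. Prrx1(R1A)-/- animal 1 was high at Ccn2 region 3 (0.885 of the range; 17.5 scaled reads against 3.33 to 4.97). Control 2 was low at Id2 region 2 (0.931; 63.5 scaled reads against 91.9 to 94.0) and at Tgfb2 region 4 (0.892; 32.9 against 47.8 to 49.6). Control 3 was high at Bmp4 (0.851; 44.8 against 23.2 to 26.4) and at Smad6 (0.848; 31.2 against 21.1 to 22.7). Without control 3 the Bmp4 log2 change was -1.02 in place of -1.35. Causes were not tested.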

How the results depend on the processing

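The scale between genotypes decided the higher calls: of 5 higher regions, 2 were called with TMM factors and 2 with DESeq2's median-ratio factors, while all 13 lower ones were called with either; the shift by scale is built into these factors. The DESeq2 test, another scale fit, a count minimum of 10, separate or first libraries, the replicate block and leaving out each animal left the calls at 5 and 13 and the directions as they were. On the authors' scale every listed region is called, so these unchanged counts say little about stability. Deviations from the group means of same-numbered animals correlated at -0.04 to 0.26 and those of differently numbered ones at -0.15 to 0.08. As not every same-numbered pair exceeded 0.1, the numbers were not taken as pairs, though number 1 lay above all differently numbered pairs. With the replicate block, log2 changes ranged from -2.07 (Ccn2 region 3) to 1.76 (Id2 region 2). Repeat libraries differed by a median of 0.22 log2 (control 1) and 0.24 (control 3) over the 18 bins.

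Counts over the 86 genes fell from 27 higher and 29 lower to 23 higher and 18 lower within 50 kb. Over all listed regions within 50 kb, 3094 were higher and 1432 lower, a larger share of higher regions than at the 86 genes. At an authors' adjusted p under 0.01, counts over the 86 genes were 14 higher and 16 lower. Fewer regions enter in either case. Uncalled differences between paired regions turned sign: Ccn2 region 2 over region 1 was -0.10 with reads + 5. Leaving out an animal gave -0.16 to 0.10 for that pair, -0.40 to 0.28 for Tgfb2 region 2 over 1, -0.016 to 0.45 for Tgfb2 region 4 over 1 and -0.22 to 0.091 for Bmp2. With 3 against 4 animals the smallest permutation p is 0.057. The 31 reads of Ccn2 region 3 and 45 of Bmp4 in Prrx1(R1A)-/- animals limit those values.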

Other observations

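Several of the 10 genes sat among other listed regions, nearest to other genes. How many listed regions lie around genes at large was not analysed here. Within 500 kb of Id2 there were 6 more, 5 higher and 1 lower, near Mboat2, an acyltransferase, and Rrm2, a subunit of ribonucleotide reductase. Over all listed regions 66.7% were higher, and region 1 of Id2, in the same stretch, was lower. Near Id3 there were 2 more, both higher (Ifnlr1 and Zfp46). Near Smad7 there were 4, 2 of each direction, at Dym and Ctif, and near Tgfbr2 there were 3, with 2 higher at Rbms3 and 1 lower at Gadl1. Ccn2 had 1 higher (Akap7) and 1 lower (Moxd1), and Bmp4 1 higher (Cdkn3), whereas Tgfb2 and Bmp2 had none.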
